A study of Mus musculus with 24 samples.

Results

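The 2215 regions described here were peaks of acetylated histone H3 lysine 27 (H3K27ac) that were listed in untreated cells, away from trimethylated lysine 4, and that had no counterpart after vitamin C. They were chosen as the peaks of the untreated H3K27ac list that overlapped no peak of the vitamin C H3K27ac list and no H3K4me3 peak of either library, and they made up 5.99% of the 36953 untreated H3K27ac peaks. The cells were mouse bone marrow cells immortalized with HOXA9 and carrying a vector for IDH1 R132H, kept in murine IL-3, human IL-6 and murine SCF. They were untreated or received vitamin C at 0.345 mM at 0, 24 and 48 h and were harvested at 72 h. Both groups carried HOXA9 and the IDH1 R132H vector, the labels give no harvest time for untreated cells and do not say whether the line was 1 clone, and each assay in each group was 1 library. No difference between the groups therefore has a replicate check, and no test between them was made. A methylation list attached to a sample of untreated wild-type IDH1 cells was also used.

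H3K27ac is placed by the acetyltransferases p300 and CBP and marks active enhancers and promoters, H3K4me1 marks enhancers whether active or poised, and H3K4me3 marks promoters. PU.1, encoded by Spi1, is an ETS family factor that opens and maintains myeloid enhancers and binds purine-rich sites around a GGAA core. Runx1 is the DNA-binding subunit of core binding factor, works beside PU.1 at many myeloid enhancers and binds TGTGGT. Vitamin C is a cofactor of the TET dioxygenases that oxidize 5-methylcytosine, and the product of mutant IDH1, 2-hydroxyglutarate, inhibits these enzymes.

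Although the regions were called distal, 59 of them lay under 2 kb from a protein-coding start site and 13 reached into the 250 bases before an annotated start. Sequence is shown for 5 of those start windows, because they are where an untreated-only peak meets an annotated promoter: Pheta2 lies whole inside its peak, 4932438H23Rik and Lcn4 belong to genes with higher RNA after vitamin C, the peaks at Bscl2 and Pheta2 were overlapped by a methylation region, and the peak at Gm40202 held PU.1 in both libraries. Each window is the 250 bases before the start site in RefSeq on GRCm38.p6, the patch release of mm10, written 5′ to 3′ on the gene's strand, with the bases inside the H3K27ac peak in capitals.
Pheta2: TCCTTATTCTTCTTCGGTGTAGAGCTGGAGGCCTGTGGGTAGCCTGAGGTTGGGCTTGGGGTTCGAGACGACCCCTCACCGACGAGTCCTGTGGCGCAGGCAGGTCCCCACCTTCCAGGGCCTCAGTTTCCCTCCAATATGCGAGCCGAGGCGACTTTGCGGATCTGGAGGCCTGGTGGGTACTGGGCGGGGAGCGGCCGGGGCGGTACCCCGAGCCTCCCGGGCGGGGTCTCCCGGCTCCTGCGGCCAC
4932438H23Rik: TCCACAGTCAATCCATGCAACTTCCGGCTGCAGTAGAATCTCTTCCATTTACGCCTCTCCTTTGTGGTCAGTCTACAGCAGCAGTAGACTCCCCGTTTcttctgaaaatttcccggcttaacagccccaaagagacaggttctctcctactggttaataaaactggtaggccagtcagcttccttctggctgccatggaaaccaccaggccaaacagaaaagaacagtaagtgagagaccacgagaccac
Lcn4: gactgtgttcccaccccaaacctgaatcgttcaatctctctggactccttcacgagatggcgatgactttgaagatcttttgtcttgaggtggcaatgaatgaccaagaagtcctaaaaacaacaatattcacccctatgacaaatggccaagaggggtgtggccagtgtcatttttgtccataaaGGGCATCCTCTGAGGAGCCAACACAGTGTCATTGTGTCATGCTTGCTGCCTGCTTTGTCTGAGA
Bscl2: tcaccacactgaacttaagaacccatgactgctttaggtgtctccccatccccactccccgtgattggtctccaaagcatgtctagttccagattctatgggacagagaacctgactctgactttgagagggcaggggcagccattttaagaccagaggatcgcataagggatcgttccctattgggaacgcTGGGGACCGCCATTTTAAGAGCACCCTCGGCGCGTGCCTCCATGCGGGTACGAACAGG
Gm40202: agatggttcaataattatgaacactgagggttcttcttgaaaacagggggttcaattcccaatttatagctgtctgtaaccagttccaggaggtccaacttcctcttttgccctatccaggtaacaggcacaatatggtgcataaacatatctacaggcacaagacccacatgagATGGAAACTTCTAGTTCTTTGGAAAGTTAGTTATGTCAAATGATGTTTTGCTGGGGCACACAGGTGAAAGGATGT

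The Pheta2 window is chr15:82340929-82341178 on the plus strand, and all of its 250 bases lay in the peak chr15:82340851-82341202. The 4932438H23Rik window is chr16:91069153-91069402 on the minus strand with 98 bases in its peak, and the Lcn4 window is chr2:26671283-26671532 on the minus strand with 64 bases in its peak. The Bscl2 window is chr19:8837217-8837466 on the plus strand with 58 bases in its peak, and the Gm40202 window is chr4:91530343-91530592 on the plus strand with 75 bases in its peak. On either strand, the PU.1 string GAGGAAGT was found in the Gm40202 window alone among these 5, outside the capitals, while 2.44% of all 32851 RefSeq start windows of the same length held it. The shorter string GGAA, which lies within GAGGAAGT, was in all 5 windows and in 93.4% of all start windows. TGTGGT, the Runx1 core, was in the 4932438H23Rik and Bscl2 windows, inside the capitals of the first, and in 14.0% of all start windows. These matches describe the letters and are not binding sites. Pheta2 RNA was near 0 in both libraries (0.0831 and 0.0910 RPKM, untreated first as in all pairs of values here). Bscl2, a gene of lipid droplet formation, was at 8.35 and 8.29 RPKM.

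The label of the cells was checked on RNA. All 9 progenitor markers, among them Hoxa9, Kit, Mpo and Spi1, were at 1 RPKM or more in both libraries, from 32.1 to 3062 RPKM untreated and from 5.07 to 1487 RPKM with vitamin C. Because HOXA9 was used to immortalize the cells, Hoxa9 RNA is no independent check of their type. Of 3 markers each, B cell, T cell and fibroblast markers reached 1 RPKM in neither library. All 3 mast cell and basophil markers reached it in both, 2 macrophage markers untreated and 3 with vitamin C, and 1 erythroid marker with vitamin C. The RNA libraries held 86804487 counts untreated and 111453443 with vitamin C, and the depth of the other libraries is unknown. The peak lists hold only what passed a threshold, so a peak missing from the vitamin C list is not a region without acetylation.

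Absence from the other library's list was commoner away from H3K4me3, in both directions. Of the 5579 untreated H3K27ac peaks without H3K4me3, 39.7% were missing from the vitamin C list, against 8.69% of those that overlapped H3K4me3. In the vitamin C list, 2352 of 5733 peaks without H3K4me3 and 1688 of 30237 with it were missing from the untreated list. The other 3364 distal untreated peaks were shared with the vitamin C list, and the vitamin C list held 2352 distal peaks of its own. These shared and vitamin C-only peaks serve below for comparison, and since all 3 sets were defined by H3K27ac, the H3K27ac values that follow are a description.

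The untreated-only peaks were short and weak. Their lengths ran from 255 to 1929 bp with a median of 349 bp, against 528.5 bp for shared and 386 bp for vitamin C-only peaks. Their listed p or q value, the authors' own, ran from 2.07e-82 to 8.93e-06 with a median of 1.61e-11, against 2.12e-16 for shared and 2.61e-12 for vitamin C-only peaks. In all, 1854 of them (83.7%) had a value of 1e-08 or below, so most were not at the ceiling of 1e-05 that the list allows. Many stood beside acetylation that remained listed: the median distance to the nearest vitamin C H3K27ac peak was 3310 bp, and 739 (33.4%) lay under 1 kb and 175 (7.90%) under 200 bp from one. The peaks just inside the rule were 1, 2 and 5 bp away from a vitamin C peak, and the shared peaks just outside it overlapped one by 5, 10 and 16 bp. Only 49 shared peaks (1.46%) overlapped by under 100 bp, and their median overlap was 403 bp.

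**Figure D1:**
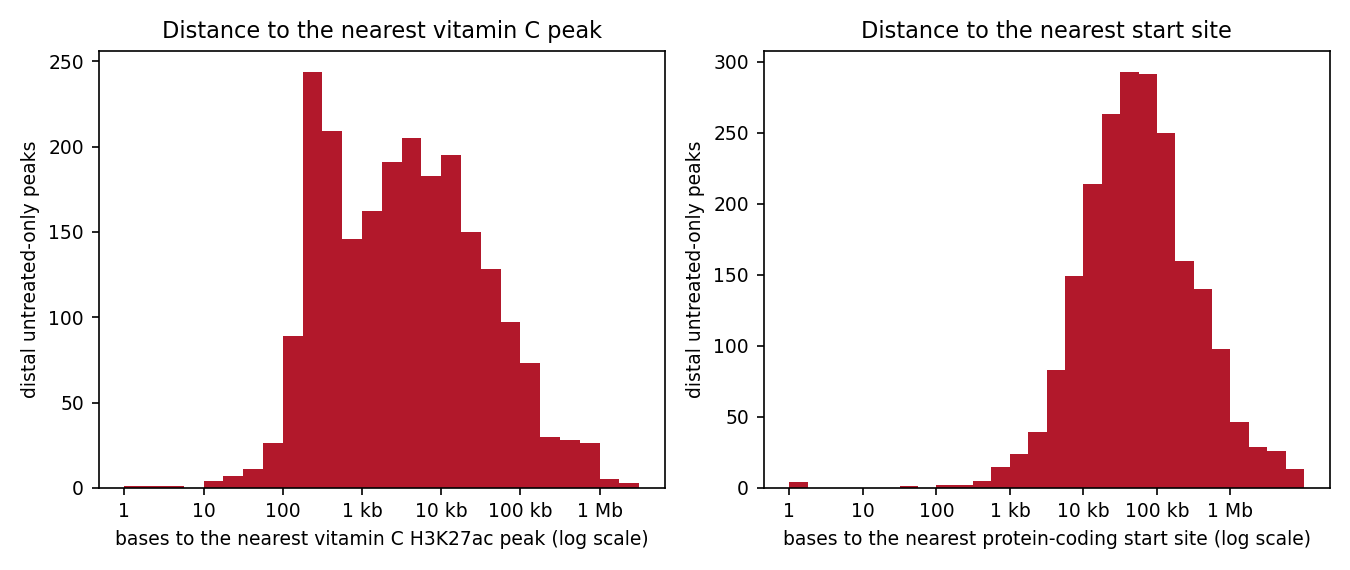
Distances of the 2215 distal untreated-only H3K27ac peaks to the nearest vitamin C H3K27ac peak (left) and, for the 2149 on a chromosome with start sites in the RefSeq table, to the nearest protein-coding start site (right), in bases on log axes, with the number of peaks as bar height. A first mode lies between 100 bp and 1 kb from a vitamin C peak and a broad second one around 10 kb, while distances to start sites centre on the median of 53784 bp.

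In the genome the untreated-only peaks lay farther from protein-coding start sites than the other distal peaks. The median distance to a protein-coding start site was 53784 bp, against 42997 bp for shared and 35362 bp for vitamin C-only peaks. A start site within 50 kb was found for 47.8% of them, against 53.7% and 59.7%. Protein-coding gene bodies held 52.0% of them (95% interval 49.9 to 54.1%), much like the 52.5% of shared peaks and below the 62.8% (60.9 to 64.8%) of vitamin C-only peaks. All intervals of shares are exact Clopper-Pearson intervals at 95% and cover counting error only. Chromosome X held 4.33% of untreated-only, 3.21% of shared and 1.53% of vitamin C-only peaks.

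H3K4me1 lay at most of these regions before treatment and at fewer after it. An untreated H3K4me1 peak overlapped 1523 of the 2215 (68.8%, 66.8 to 70.7%), beside 70.2% of all distal untreated H3K27ac peaks, 71.1% of shared and 71.0% of vitamin C-only peaks. A vitamin C H3K4me1 peak overlapped 915 (41.3%, 39.2 to 43.4%), beside 44.5% of all distal untreated peaks, 46.6% (44.9 to 48.3%) of shared and 47.1% (45.1 to 49.2%) of vitamin C-only peaks, and its interval lay below those of both. The drop from the untreated to the vitamin C list was thus found in all 3 sets, and the lists themselves differed, with 57750 peaks over 183 Mb untreated and 45657 over 108 Mb with vitamin C. With only the 45657 strongest peaks of each list, 51.6% and 41.3% of untreated-only peaks had one.

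Region by region, 709 untreated-only peaks had H3K4me1 in both libraries, 814 in the untreated library alone, 206 with vitamin C alone and 486 in neither. Of those with untreated H3K4me1, 46.6% (44.0 to 49.1%) also had it with vitamin C, close to the 48.9% (46.9 to 50.9%) of shared peaks. The H3K4me1 peaks were much wider than the acetylation, with a median length of 7179 bp at untreated-only peaks and 8817 bp at shared peaks. Counting only H3K4me1 peaks of at most 10 kb, 42.2% of untreated-only peaks had one untreated and 28.8% with vitamin C. Shared peaks then stood at 38.6% and 29.5%, and vitamin C-only peaks at 38.2% and 28.2%. Under this limit, vitamin C H3K4me1 was thus not lower at untreated-only peaks than at both other sets, and the intervals overlapped in both libraries.

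Vitamin C H3K4me1 was least frequent at the strongest of these regions. Peaks were put in 4 classes by their listed untreated H3K27ac value, and the share with a vitamin C H3K4me1 peak was 46.8% in the 361 weakest (over 1e-08) and 27.2% (19.3 to 36.3%) in the 114 strongest (at most 1e-20). Shared peaks of the same classes stood at 51.7% and 44.4% (41.6 to 47.4%). The vitamin C shares of the classes between were 40.9% and 41.3%, against 49.9% and 45.4% of shared peaks. Untreated H3K4me1 went from 72.3% to 61.4% (51.8 to 70.4%) over the same classes of untreated-only peaks, and from 75.8% to 67.4% in shared peaks.

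**Figure D2:**
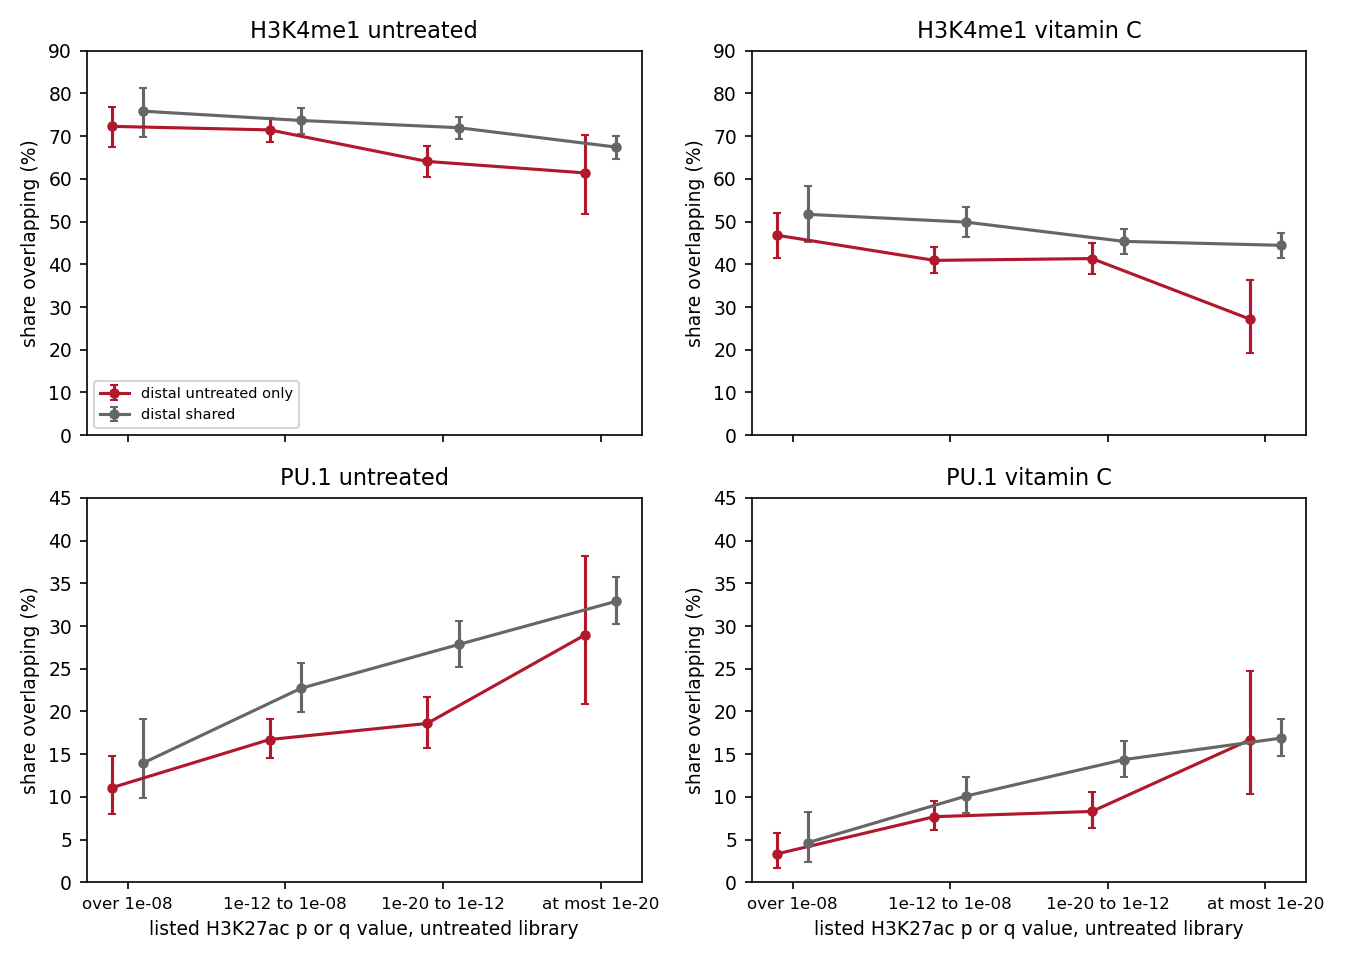
Share of distal H3K27ac peaks overlapping an H3K4me1 (top) or PU.1 (bottom) peak of the untreated (left) and vitamin C (right) library, in percent, by class of the listed untreated H3K27ac p or q value from weakest to strongest; red is untreated-only, grey is shared, bars are exact 95% intervals for counting error. PU.1 shares climb with the strength of H3K27ac in both sets, from 11.1% to 28.9% untreated in the untreated-only peaks, and vitamin C H3K4me1 at the strongest untreated-only peaks stands at 27.2%, below the 44.4% of shared peaks.

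PU.1 was listed at fewer of these regions than of shared distal peaks. An untreated PU.1 peak overlapped 377 (17.0%, 15.5 to 18.7%), beside 23.2% of all distal untreated peaks, 27.3% (25.8 to 28.9%) of shared and 16.9% of vitamin C-only peaks. A vitamin C PU.1 peak overlapped 169 (7.63%, 6.56 to 8.81%), beside 11.2% of all distal untreated peaks, 13.5% of shared and 7.31% of vitamin C-only peaks. The intervals of untreated-only and shared peaks did not overlap in either library, and those of untreated-only and vitamin C-only peaks did. Longer peaks have more room for an overlap, so a window of 1 kb around each centre was also used: 23.4% (21.7 to 25.3%) of untreated-only and 30.6% (29.0 to 32.2%) of shared peaks then had untreated PU.1. Within classes of H3K27ac value, the shares were 11.1% (8.03 to 14.8%) against 14.0% (9.82 to 19.1%) over 1e-08. They were 16.7% against 22.7% from 1e-12 to 1e-08, 18.6% against 27.8% from 1e-20 to 1e-12, and 28.9% (20.8 to 38.2%) against 32.9% (30.2 to 35.7%) at 1e-20 or below. The intervals overlapped in the weakest and the strongest class.

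PU.1 peaks that were present with vitamin C had nearly all been present without it. Of the 377 regions with untreated PU.1, 165 (43.8%, 38.7 to 48.9%) had it in both libraries and 212 in the untreated library alone, while 4 had it with vitamin C alone. The share kept was 47.2% (43.9 to 50.5%) at shared peaks, with overlapping intervals. The PU.1 list was also shorter with vitamin C, with 23522 peaks against 61611, and with 23522 of the strongest from each list 10.2% and 7.63% of untreated-only peaks had one. The authors' PU.1 score had a median of 15.1 at untreated-only peaks, 13.7 at shared peaks and 8.78 over the untreated list. It was 41.9 in median where PU.1 was kept and 8.67 where it was not.

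PU.1 was more frequent at regions far from the acetylation listed with vitamin C. It lay at 10.0% (7.94 to 12.4%) of the regions under 1 kb from a vitamin C H3K27ac peak, at 18.8% of those 1 to 10 kb away and at 22.3% (19.4 to 25.5%) of those 10 kb away or more. Untreated H3K4me1 lay at 72.7%, 74.9% and 58.6% (55.0 to 62.2%) in the same order, lower in the farthest class alone. Untreated PU.1 lay at 16.2% (14.3 to 18.1%) of the regions with untreated H3K4me1 and at 18.9% (16.1 to 22.1%) of those without it, with overlapping intervals. Together 246 regions held both, 1277 only H3K4me1, 131 only PU.1 and 561 neither. In shared peaks 19.4% held both, against 11.1% here. No H3K4me1 or PU.1 peak of either library touched 395 untreated-only peaks (17.8%, 16.3 to 19.5%), against 12.3% (11.2 to 13.5%) of shared peaks.

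The 5 regions with the highest untreated PU.1 scores all kept a PU.1 peak with vitamin C. The highest was chr2:50841644-50841898, 307213 bp from the start of Rnd3, with a score of 551 untreated and 170 with vitamin C and an H3K27ac value of 1.61e-08. It was followed by chr6:144693781-144694035 in Sox5, with 342 and 180. The next, chr6:99241942-99242224 in Foxp1, a forkhead factor gene, had 195 and 88.2, lay 115 bp from a vitamin C H3K27ac peak and was overlapped by a MeDIP deMR. The scores come from lists of different length and are not compared between libraries. None of the 3 was among the 10 strongest regions by H3K27ac.

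**Figure D3:**
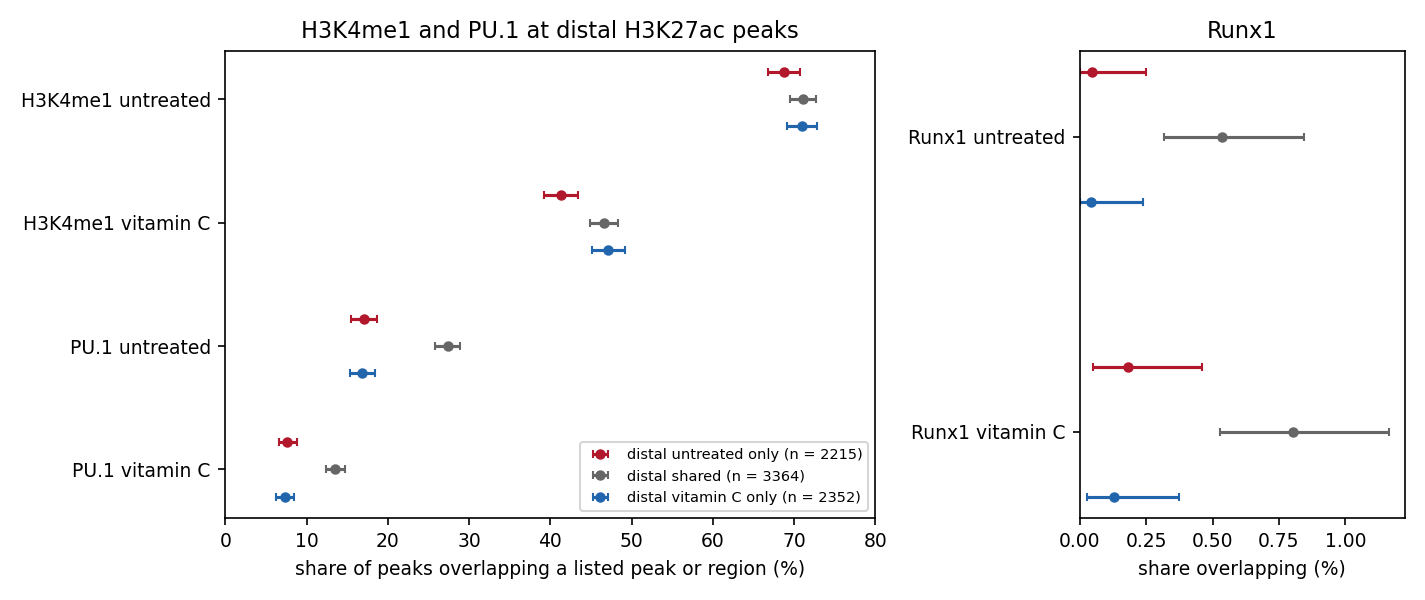
Share of peaks, in percent, overlapping an H3K4me1 or PU.1 peak (left) or a Runx1 peak (right) of each library, for distal untreated-only (red), shared (grey) and vitamin C-only (blue) H3K27ac peaks, with exact 95% intervals for counting error. Untreated H3K4me1 lies between 68.8% and 71.1%, vitamin C H3K4me1 is at 41.3% of untreated-only against 46.6% of shared peaks, PU.1 is at 17.0% of untreated-only against 27.3% of shared peaks untreated, and Runx1 stays under 1% in all sets.

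Runx1 was almost absent from these regions. An untreated Runx1 peak overlapped 1 of 2215 (0.0451%, 0.00114 to 0.251%), beside 0.341% of all distal untreated peaks, 18 shared peaks and 1 vitamin C-only peak. A vitamin C Runx1 peak overlapped 4 (0.181%, 0.0492 to 0.462%), beside 0.556% of all distal untreated peaks and at 27 shared and 3 vitamin C-only peaks. The Runx1 lists were short, with 3908 and 6250 peaks. The 1 region with H3K4me1, PU.1 and Runx1 together untreated was chr12:31415453-31416117, 22102 bp from the start of the anion exchanger gene Slc26a3, and with vitamin C it held H3K4me1 but neither factor. The 4 with vitamin C Runx1 were in Xrcc3, which acts in homologous recombination, 243 bp from the start of Oaf, in the diacylglycerol kinase gene Dgki and in Trio, which encodes a guanine nucleotide exchange factor. Runx1 was listed at none of these 4 untreated, and the Dgki region alone had untreated PU.1.

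Methylation regions were rare at untreated-only peaks. Whole-genome bisulfite sequencing (WGBS) and antibody pulldown of 5-methylcytosine (MeDIP) and 5-hydroxymethylcytosine (hMeDIP) gave lists named deMR, iMR and iHR, whose direction and compared libraries the labels do not define. A WGBS deMR, from the list attached to the vitamin C sample, overlapped 9 (0.406%, 0.186 to 0.770%), beside 2.01% of all distal untreated peaks, 3.06% (2.51 to 3.70%) of shared and 6.68% (5.70 to 7.76%) of vitamin C-only peaks. An hMeDIP iHR overlapped 13 (0.587%, 0.313 to 1.00%), beside 1.31% of all distal untreated peaks, 1.78% of shared and 2.98% of vitamin C-only peaks. A MeDIP deMR overlapped 8 (0.361%), beside 0.574%, and a MeDIP iMR overlapped 2, beside 0.108%. Within 1 kb, a MeDIP iMR lay at 0.632% of untreated-only, 0.386% of shared and 0.340% of vitamin C-only peaks, with overlapping intervals. The list attached to untreated wild-type IDH1 cells overlapped 4 (0.181%), beside 0.323% of all distal untreated peaks. WGBS deMRs were also compared within classes of H3K27ac value. From 1e-12 to 1e-08, 0.672% (0.271 to 1.38%) of untreated-only and 3.12% (2.05 to 4.55%) of shared peaks had one. From 1e-20 to 1e-12, 0 of 699 untreated-only peaks had one (exact upper limit 0.526%), against 3.52% of shared peaks. In the weakest class the intervals overlapped (0.0672 to 1.99% and 1.47 to 6.57%). In the strongest, 0 of 114 had an exact upper limit of 3.18%, against 2.50% of shared peaks.

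WGBS iMRs, from the list attached to the untreated sample, were not less frequent at untreated-only peaks than at the other distal peaks. They overlapped 9 untreated-only peaks (0.406%, 0.186 to 0.770%), beside 0.251% of all distal untreated peaks, 5 shared peaks (0.149%) and 4 vitamin C-only peaks (0.170%), with intervals that overlapped. The 9 included the peaks at the printed start windows of Pheta2 and Bscl2. Others lay in Srf, the gene of serum response factor, 2843 bp from its start, in Tshz2, in Popdc2, in Hpse2 and in Foxn1. The Foxn1 region also held PU.1 in both libraries. The 9 with a WGBS deMR included 1 region 18737 bp from the start of Btla, 1 in Rsu1 with untreated PU.1, and 1 in Ostf1.

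**Figure D4:**
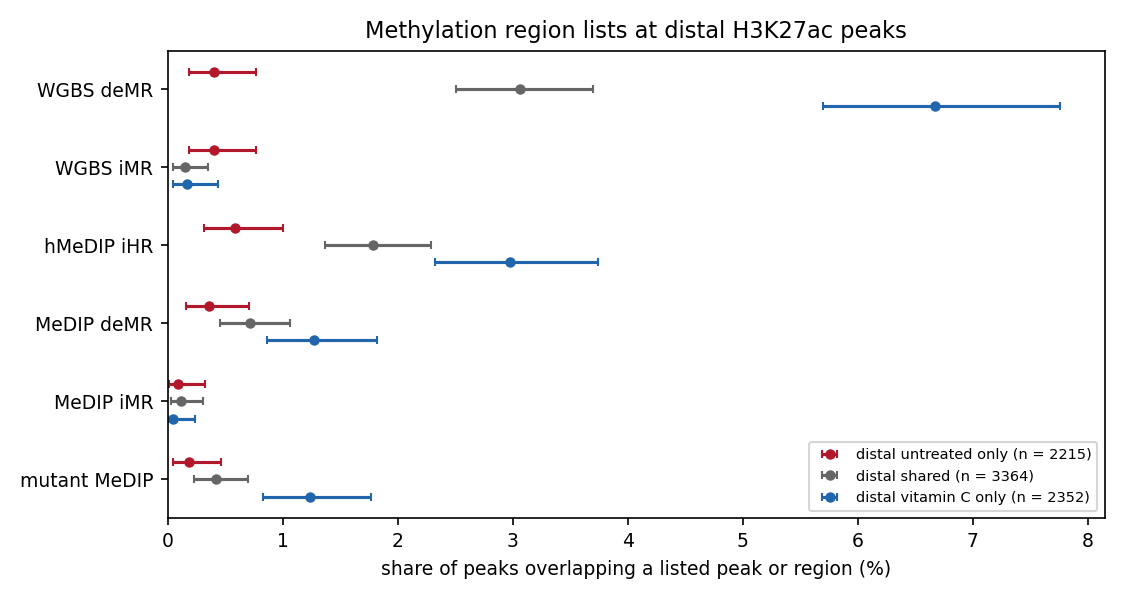
Share of peaks, in percent, overlapping a region of each deposited methylation list, for distal untreated-only (red), shared (grey) and vitamin C-only (blue) H3K27ac peaks, with exact 95% intervals for counting error; "mutant MeDIP" is the list attached to untreated wild-type cells. WGBS deMRs run from 0.406% through 3.06% to 6.68%, and hMeDIP iHRs follow the same order, while WGBS iMRs do not.

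The strongest untreated-only peak was chr16:49430155-49431028, 874 bp long, with a value of 2.07e-82. It lay in no protein-coding gene and 72600 bp from the nearest vitamin C H3K27ac peak, had H3K4me1 in both libraries, and had a weak PU.1 peak (score 6.50) untreated only. The next, chr10:53525177-53526159, 70802 bp from the start of the histone chaperone gene Asf1a, had PU.1 in both libraries, with scores of 111 and 63.2. The third, chr13:75366356-75367201, had a value of 2.67e-56 but lay 207 bp from a vitamin C H3K27ac peak. Others of the 10 strongest lay in P2ry6, a nucleotide receptor gene, in Mcub, which encodes a subunit of the mitochondrial calcium uniporter, and in Schip1. Of the 10 strongest, 6 had H3K4me1 untreated and 4 with vitamin C, 4 had PU.1 untreated and 1 with vitamin C, and none had Runx1.

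Most untreated-only peaks stood alone. Joined over gaps of up to 10 kb they made 1969 groups, of which 1748 held 1 peak, 199 held 2 and 22 held 3 or more, and 467 peaks (21.1%) had a neighbour. The largest group was 5 peaks over 13956 bp in Auts2, all inside H3K4me1 in both libraries and none with PU.1. Groups of 3 lay in Ikzf2, which encodes the lymphoid zinc-finger factor Helios, with H3K4me1 at all 3 untreated and at none with vitamin C, and in Septin9, with PU.1 at 1.

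Genes near the untreated-only peaks differed between the libraries in both directions. A gene was counted as near when its start site lay within 50 kb, and 1025 of 8225 measured genes with a known start site did so. Of these, 38 (3.71%, 2.64 to 5.05%) were higher with vitamin C by a log2 change of 1 or more, beside 2.32% of all measured genes. Another 30 (2.93%, 1.98 to 4.15%) were lower by as much, beside 1.87% of all measured genes. Near shared peaks 4.92% were higher and 2.75% lower, near vitamin C-only peaks 4.02% and 2.58%, and of genes near none of the 3 sets 1.48% in each direction. The median log2 change near untreated-only peaks was −0.02, against −0.04 over all. Of the 1025 genes, 361 were also near a shared peak, and without them 14 of 664 (2.11%) were higher and 16 (2.41%) lower. RNA was measured in whole cultures, where fewer cells of a type and less RNA per cell cannot be told apart. Summed over their lists, progenitor markers were at 6826 and 3303 RPKM, macrophage markers at 200 and 413 RPKM and mast cell and basophil markers at 1974 and 2634 RPKM, and the part of such a shift in the gene counts was not tested. Hoxa9, with which the cells were immortalized, made up 3062 and 1487 RPKM of the progenitor sums.

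The same counts were taken by the number and the marks of the nearby regions. Among 871 genes with 1 peak nearby 3.44% were higher and 2.53% lower, among 130 with 2 peaks 6.15% (2.69 to 11.8%) and 5.38% (2.19 to 10.8%), and among 24 with 3 or more none was higher and 1, Gfi1, was lower. Genes near a region that had H3K4me1 only untreated were higher in 14 and lower in 17 of 378 cases (4.50% lower, 2.64 to 7.10%). Genes near a region with H3K4me1 in both libraries were higher in 11 and lower in 7 of 340 (2.06% lower, 0.832 to 4.20%). Near a region with no H3K4me1, 11 of 258 genes were higher (4.26%) and 5 lower (1.94%, 0.632 to 4.46%), and the intervals of these groups overlapped. Near regions with untreated PU.1, 9 of 191 genes were higher (4.71%, 2.18 to 8.76%) and 4 lower (2.09%, 0.573 to 5.28%), with intervals that hold the 2.32% and 1.87% of all measured genes.

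**Figure D5:**
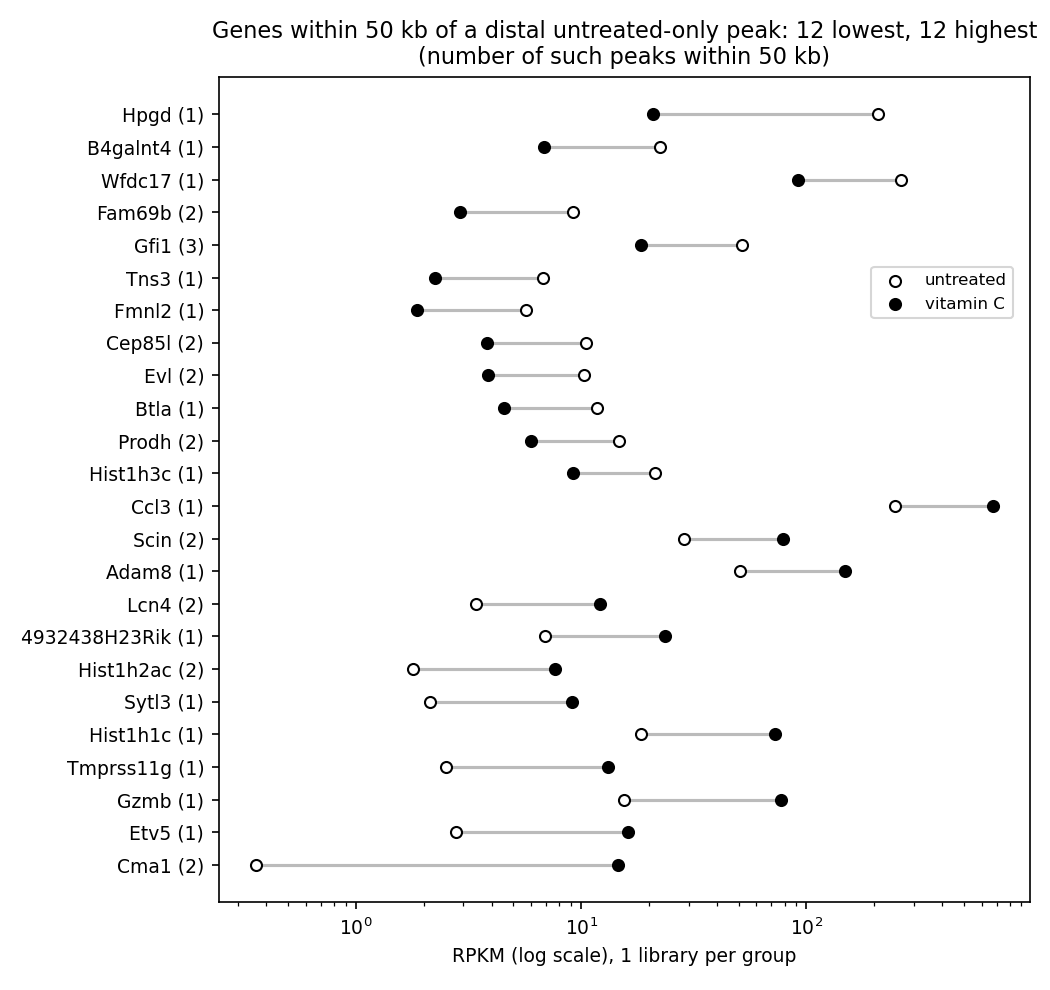
RNA level in RPKM (log axis) of the 12 genes with the lowest and the 12 with the highest log2 change among those of at least 5 RPKM with a start site within 50 kb of a distal untreated-only peak, untreated (open) and with vitamin C (filled), 1 library each, with the number of such peaks in brackets. Hpgd at the top stands at 208 and 20.8 RPKM and Cma1 at the bottom at 0.359 and 14.6 RPKM.

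Hpgd, which encodes the prostaglandin-degrading enzyme 15-hydroxyprostaglandin dehydrogenase, had the lowest log2 change, −3.29, at 208 and 20.8 RPKM. Its untreated-only peak, chr8:56314740-56314994, lay in the gene 20188 bp from its start and only 83 bp from a vitamin C H3K27ac peak, with H3K4me1 untreated and not with vitamin C. There were 3 shared distal peaks near its start. Gfi1, a transcriptional repressor needed for neutrophil development, went from 52.0 to 18.4 RPKM, a ratio of 0.355 (0.343 to 0.366, counting error). It had 3 untreated-only peaks 39730 to 42614 bp from its start, and no shared or vitamin C-only distal peak within 50 kb. All 3 had untreated H3K4me1 and 2 also had it with vitamin C. They lay 401, 2780 and 3285 bp from a vitamin C H3K27ac peak. Prodh, a mitochondrial proline dehydrogenase, was at 14.7 and 5.99 RPKM, with 2 untreated-only peaks that lost H3K4me1 from the list and no other distal peak nearby. Cep85l, at 10.5 and 3.82 RPKM, likewise had 2 such peaks and no other, but with H3K4me1 in both libraries. The Cep85l peaks lay 213 and 1270 bp from a vitamin C H3K27ac peak, and those of Prodh 21588 and 22474 bp.

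The other lower genes had 1 or 2 untreated-only peaks each. Evl, an Ena/VASP protein of actin filament ends, went from 10.3 to 3.86 RPKM and held 2 untreated-only peaks in its body, the stronger with a value of 1.05e-21. Fmnl2, a formin, went from 5.66 to 1.87 RPKM with a peak of 3.26e-20 in its body, and Tns3, a tensin of focal adhesions, from 6.77 to 2.25 RPKM with a peak of 5.49e-17 that had no H3K4me1. Btla, an inhibitory receptor, went from 11.7 to 4.55 RPKM beside a peak with a WGBS deMR. B4galnt4, a glycosyltransferase, was at 22.4 and 6.82 RPKM, and Fam69b at 9.16 and 2.89 RPKM. Wfdc17, which encodes a small secreted protein, was at 262 and 91.6 RPKM. Of the 12 lowest genes, Hist1h3c alone had an untreated-only peak with PU.1 nearby.

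Genes with higher RNA after vitamin C also lay near regions whose acetylation was no longer listed. Etv5, an ETS family factor, went from 2.78 to 16.1 RPKM and had 1 untreated-only peak 21797 bp away, with no other distal peak within 50 kb. Adam8, a metalloprotease, went from 50.7 to 148 RPKM with a peak 1978 bp from its start. Scin, an actin-severing protein, went from 28.6 to 79.0 RPKM with 2 peaks, 1 of them with untreated PU.1. Sytl3, of vesicle trafficking, was at 2.13 and 9.11 RPKM, and Tmprss11g, a membrane serine protease, at 2.51 and 13.2 RPKM. For the genes of the printed windows, 4932438H23Rik was at 6.94 and 23.6 RPKM and Lcn4, a lipocalin, at 3.42 and 12.1 RPKM, and H3K4me1 was listed at both windows' peaks untreated and not with vitamin C. The peak at the Lcn4 start is also 1 of the 2 near Fam69b, which was lower. The histone genes Hist1h1c (18.4 and 72.8 RPKM), Hist1h2ac (1.78 and 7.62 RPKM) and Hist1h3c (21.4 and 9.19 RPKM) share 1 untreated-only peak with untreated PU.1, and since histone genes have near-identical copies and mostly lack a polyA tail their values are uncertain.

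Mast cell protease genes on chromosome 14 lay in a stretch with more untreated-only than other distal peaks. From 50 kb outside Cma1 to 50 kb outside Gzmb there were 5 untreated-only, 1 shared and 2 vitamin C-only distal peaks, a locus picked after its values were seen. Cma1, the mast cell chymase, had 28 reads (0.359 RPKM) untreated and 1458 reads (14.6 RPKM) with vitamin C, a ratio of 40.8 (28.1 to 61.5, counting error), and its start was 2400 bp from an untreated-only peak. That peak had a value of 4.17e-06, near the ceiling of the list, and lay 280 bp from a vitamin C H3K27ac peak, and both vitamin C-only peaks of the locus and the shared one were within 50 kb of Cma1 too. Gzmb, the cytotoxic protease granzyme B, went from 15.5 to 76.8 RPKM, and its only distal peak within 50 kb was an untreated-only one 4102 bp away, 158466 bp from the nearest vitamin C H3K27ac peak. Between them, Ctsg, the azurophil granule protease cathepsin G, was at 2101 and 1136 RPKM, and Mcpt8, a basophil protease, at 110 and 140 RPKM. The region chr14:56014246-56014500, 3464 bp from the start of Mcpt1, had PU.1 in both libraries with scores of 192 and 56.0, yet Mcpt1 had 0 reads in both. H3K4me1 was listed at 3 of these 5 regions untreated and at 1 with vitamin C, the Mcpt1 one. These proteases are related, and the counting could split reads between close copies. Cpa3, the mast cell carboxypeptidase on chromosome 3, was at 1863 and 2488 RPKM with 2 untreated-only peaks and no other distal peak near. Among mast cell and basophil genes, 13 were measured and 12 had a known start site. Of these, 3 (25%) were near an untreated-only peak, and Cma1 alone of the 3 passed the threshold. Over the whole list, near or not, 5 were higher and 1 lower.

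The chemokine locus on chromosome 11 combined both directions at 1 region. The untreated-only peak chr11:83655415-83655805 lay 6037 bp from the start of Ccl3, which went from 246 to 673 RPKM, in the reach of Wfdc17, which was lower, and inside the RefSeq gene span of Ccl4, which was at 21.7 and 113 RPKM. It had H3K4me1 untreated only, inside a domain of 41499 bp, and stood among 7 shared distal peaks.

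Of all 8225 measured genes with a start site, 12.5% were near an untreated-only peak, and 2.32% were higher and 1.87% lower. The lists themselves, near or not, held 10 immediate early, 5 hypoxia, 5 mast cell and basophil, 4 monocyte and macrophage and 2 myeloid factor genes that were higher. They held 4 cytokine receptor and STAT, 3 stem cell and HOXA9-linked, 2 primary granule, 2 monocyte and macrophage, 2 myeloid factor and 1 mast cell and basophil gene that were lower. With 9 to 15 genes a list, the intervals of the shares near are wide, and at most 1 of the genes near passed in any list. Of 13 stem cell and HOXA9-linked genes with a start site, 3 (23.1%, 5.04 to 53.8%) were near and none passed: Erg, an ETS factor of stem cells, with 4 untreated-only peaks in its body, was at 43.9 and 38.4 RPKM and also had 4 vitamin C-only and 2 shared distal peaks within 50 kb, Cdk6 was at 46.1 and 39.4 RPKM and Myb at 200 and 155 RPKM. At Erg, 3 of the 4 peaks had H3K4me1 untreated and none with vitamin C. Of 13 myeloid factor genes, 3 (23.1%) were near and Gfi1 was lower, while Ikzf1, at 26.9 and 21.4 RPKM, had 2 untreated-only peaks that both carried PU.1 in both libraries, and Runx3, at 28.1 and 34.9 RPKM, had 1 with PU.1 in both. Of 9 primary granule genes, 3 (33.3%, 7.49 to 70.1%) were near and none passed, namely Ctsg, Plac8 (469 and 380 RPKM) and the granule proteoglycan gene Srgn (736 and 1057 RPKM). Of 15 cytokine receptor and STAT genes, 5 (33.3%, 11.8 to 61.6%) were near and none passed, among them the kinase gene Pim1 (238 and 342 RPKM) and Socs1 (48.6 and 61.6 RPKM), a feedback inhibitor of cytokine signalling. Of 12 hypoxia genes, 3 (25%, 5.49 to 57.2%) were near, and Ddit4, an inhibitor of mTORC1, was higher, from 46.8 to 117 RPKM. Ldha was at 372 and 618 RPKM and Egln3 at 55.3 and 69.0 RPKM. Dusp2 was the only 1 of 13 immediate early genes near, at 21.5 and 35.8 RPKM, and none of 10 monocyte and macrophage genes with a start site was near. By gene span, 8 stem cell and HOXA9-linked genes, 8 myeloid factor genes and 2 monocyte and macrophage genes (Csf1r and F13a1) lay within 50 kb. Ly6a, of the stem cell list, was among these and passed the threshold, at 10.7 and 23.6 RPKM.

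Genes with the most untreated-only peaks nearby did not pass the threshold, apart from Gfi1. Edem3, of glycoprotein degradation in the endoplasmic reticulum, had 5, all with untreated H3K4me1, and was at 23.7 and 35.6 RPKM. Ccr1, a chemokine receptor, had 4, all with H3K4me1 in both libraries and all within 1355 bp of a vitamin C H3K27ac peak, and was at 44.0 and 61.3 RPKM. Sept9 (Septin9), a cytoskeletal GTPase, had 4, with PU.1 at 2 in both libraries, and was at 55.6 and 54.8 RPKM. Akr1c13, an aldo-keto reductase, had 3, among them a region of 1861 bp 1628 bp from its start with no H3K4me1 or PU.1, and was at 174 and 168 RPKM.

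In the authors' deposited tables, 53 genes of the higher list (5.17% of the 1025 genes near an untreated-only peak) were near, against 3.90% of all measured genes with a start site. In the authors' deposited tables, 29 of the lower list (2.83%) were near, against 1.65%. The authors chose both lists on these same libraries. Since a start site was known for 8225 of 10436 measured genes, gene spans were also used, which placed 1663 genes within 50 kb, of which 57 (3.43%) were higher beside 2.39% of all, and 45 (2.71%) lower beside 1.91% of all. Kcng2, a potassium channel subunit gene at 12.2 and 1.35 RPKM, and Vit, at 12.8 and 2.19 RPKM, then joined the lower ones, each with an untreated-only peak in its body. Gpr34, a lysophospholipid receptor gene at 11.8 and 42.0 RPKM, joined the higher ones, with a peak of 1.05e-21 in its body that held PU.1 in both libraries.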

How the data were processed

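Peak lists, region lists and RNA tables of 18 of 24 samples were used, 1 library per group. Per the submitters' processing notes, the build was mm10 and the tools were MACS2 2.1.0.2, SAMtools (0.1.16, 0.1.8, 0.1.2), Novoalign 3.02.08, BWA, Picard and CASAVA 1.8.2, whose roles are not stated. Settings of the peak caller, the read counter and the annotation were not given in the sources. Each histone peak has a p-value or q-value (which of them is not stated), and each PU.1 or Runx1 peak an undefined score, as the authors deposited them. The RNA tables carry read counts and RPKM as deposited by the authors.

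Peaks were compared by overlap of at least 1 bp, after 1159 and 259 repeated intervals of the PU.1 lists were removed. Genes reaching 1 RPKM in either library were counted as higher or lower at a log2 change of 1 or −1, with a pseudocount of 0.5 RPKM, which understates changes of low genes. Ratios of RPKM have exact binomial intervals from reads. The 95% intervals, and the exact upper limits for a share of 0, cover counting error only. Start sites came from RefSeq on GRCm38.p6, and 66 regions on chromosome 18 had none. Named genes were the 12 lowest and 12 highest log2 changes at 5 RPKM or more, the 10 with most regions nearby and up to 4 of each list. The regions, the lists and the classes were chosen with earlier results of these data known. Scripts (Python 3.11.15, pandas 2.3.3, SciPy 1.17.1) were tested on simulated intervals and counts. The sequence of the regions outside start windows was not analysed here.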

Additional observations from a re-analysis of the deposited data

How the results depend on the processing

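No paired analysis was possible because each group held 1 library, and no library could be left out. Asking for no vitamin C H3K27ac peak within 1 kb left 1476 regions, of which 20.5% had untreated and 9.21% vitamin C PU.1. Near them, 22 of 666 genes (3.30%) were higher and 15 (2.25%) lower, beside 2.32% and 1.87% of all measured genes. Asking for cover of at least 50% of the shorter interval gave 9.12% and 3.48% for PU.1 and 0% for untreated Runx1. Equal numbers of the strongest peaks gave 10.2% for untreated PU.1, 51.6% for untreated H3K4me1 and 0.0451% for vitamin C Runx1. Added after seeing the data, a 1 kb centre window gave 23.4% and 11.1% for PU.1, and H3K4me1 peaks of at most 10 kb gave 42.2% and 28.8%. A methylation region within 1 kb lay at 6.19%. A fold of 1.5 gave 74 higher (7.22%) and 78 lower genes (7.61%), beside 6.16% and 6.07% of all measured genes. Start sites within 10 kb gave 9 (3.93%) and 8 (3.49%) of 229 genes. Leaving out genes near a shared peak, also added later, gave 14 (2.11%) and 16 (2.41%) of 664. Both of these settings are read against 2.32% and 1.87% of all measured genes. In all, 22 of 65 alternative values lay outside the main interval or 1.5 times the main count, and 43 did not. Genes and regions were compared as counts here, so a setting that keeps fewer of them can fall outside by its size alone. The same pseudocount is added to both RPKM values, so another pseudocount can change the size of a log2 change but never its direction. The peak lists' thresholds and unknown depth limit every share.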
